A study of Rattus norvegicus with 10 samples.

Results

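The genes described here encode the subunits of the 3 nuclear RNA polymerases, the subunits of the RNA exosome and a set of nucleolar proteins that build ribosomes, measured in rat liver after a single oral dose of RG3487. Members were chosen by gene symbol from the probe sets annotated to exactly 1 gene: symbols that begin with Polr1, Polr2 or Polr3, with Nop, Nol, Utp, Rrp or Exosc and a digit, the symbols Imp3 and Imp4, and Fbl, Ncl, Npm1 and Dkc1. This gave 88 of 15859 probe sets, for 73 genes. Npm1 had none, because its 3 probe sets are annotated to a pseudogene as well. The samples were 10 livers of CRL:WI (Han) rats aged 6 to 8 weeks, 1 array per animal. The 5 animals of the vehicle group received deionized water, and the 5 treated animals received RG3487 at 180 mg/kg, both by gavage in 5 ml/kg. RG3487 is a compound known to act on nicotinic and serotonin receptors. The sample labels give 24 h after dosing, whereas the series text names 2 h. The rats were kept 5 together, and the labels do not say whether treatment groups shared a cage.

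A cell makes its ribosomes in the nucleolus. RNA polymerase I transcribes the large ribosomal RNA precursor, RNA polymerase III supplies the small ribosomal RNA of the large subunit and the transfer RNAs, and RNA polymerase II transcribes the genes of the ribosomal proteins and assembly factors. Small nucleolar ribonucleoproteins (snoRNPs) modify the precursor, the small subunit processome (the home of the Utp and Imp proteins) folds and cuts it, and the exosome trims the ends and degrades the spacers. In liver these genes are known for their increase when hepatocytes grow, as after partial hepatectomy.

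At least 1 gene of this machinery rose with RG3487 in every family except the Imp pair, and no gene fell by its brightest probe set. Apart from that pair, the share of genes that rose ran from 28.6% for RNA polymerase III to 69.2% for RNA polymerase II. The lower end lay near the 22.3% of all genes. Signals are MAS5 intensities without a unit, analysed as log2 of signal plus 16, and a probe set was called when its adjusted p in limma's test over all 11894 probe sets analysed was under 0.05. Of the 88 member probe sets, 73 passed the filter on dim signals, and the text follows 1 probe set per gene, the brightest, for 65 genes. Of these 65 genes, 33 rose and 0 fell, or 50.8%. Over all 7727 genes analysed, 22.3% rose and 7.4% fell, so the background was itself mostly upward and the members' share of increases stood above it. By probe set, 35 members rose and 1 fell, against 20.5% and 7.16% of all probe sets. The median change of the 65 genes was 0.247 on the log2 scale, and that of all genes was 0.0944. In 61 of the 65 genes the change was positive. In 20 of them the lowest RG3487 animal lay above the highest vehicle animal, where 15.5% of all genes did so. The changes were small: the largest, in Polr3g, was 2.04-fold.

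**Figure D1:**
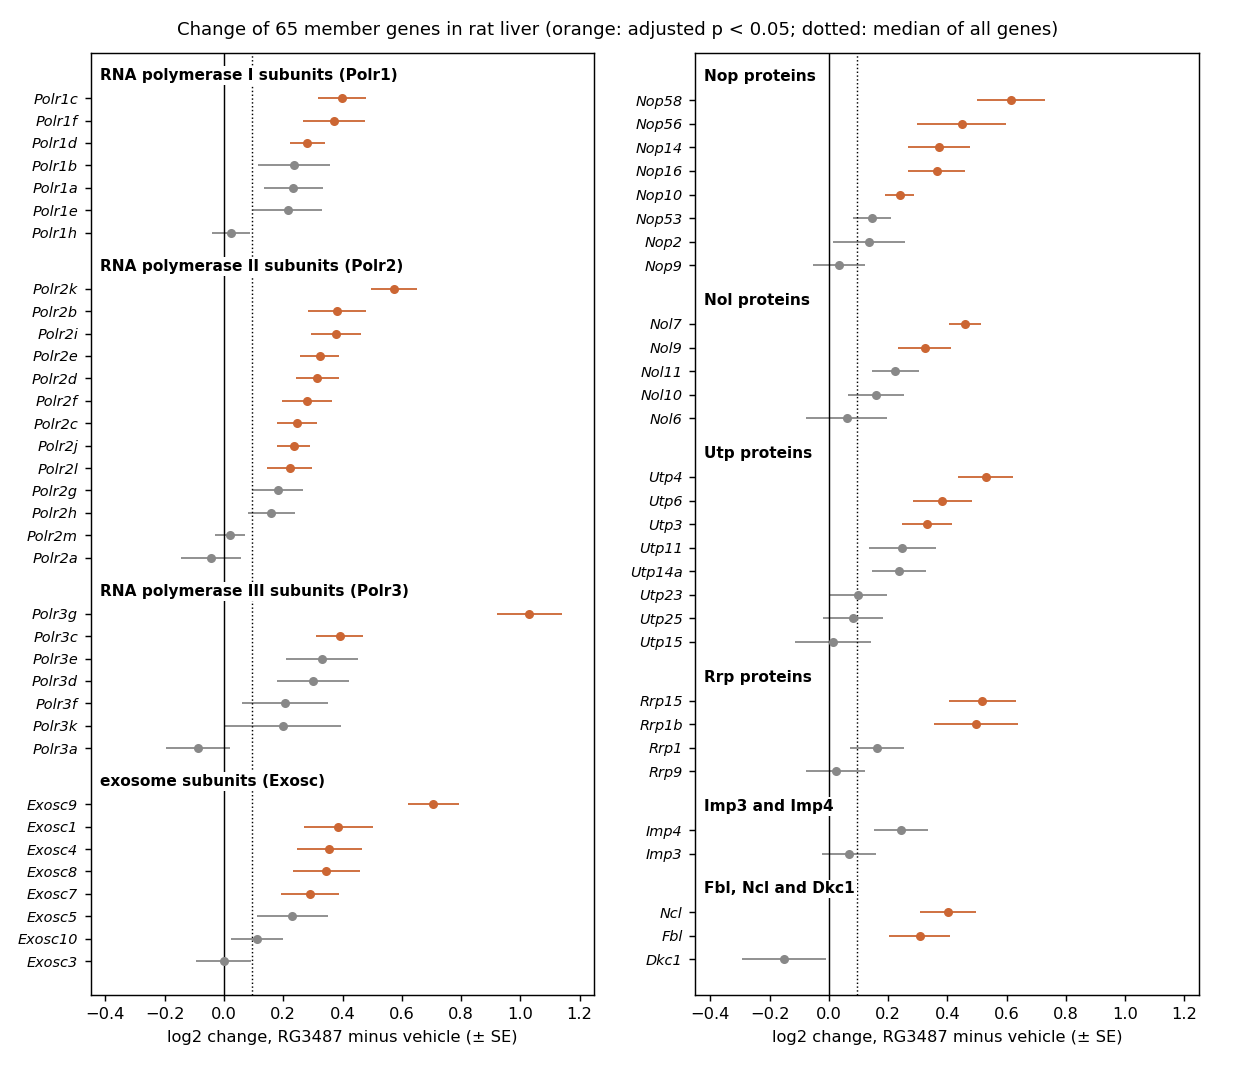
Log2 change (RG3487 minus vehicle, ± SE from limma, n = 5 per group) of the 65 member genes, by family. Orange points passed at an adjusted p under 0.05, grey points did not, and the dotted line is the median of all genes (0.0944); Polr3g lies farthest to the right at 1.03, and only Dkc1, Polr3a, Polr2a and Exosc3 lie at or below 0.

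The remaining 15 member probe sets were too dim to be tested, with group means between 11.2 and 45.2. They leave 8 genes with no tested probe set, namely Polr3b, Exosc2, Nol3, Nol8, Utp18, Rrp12, Rrp7a and Rrp8. Nol3 entered by its name alone: it encodes a repressor of apoptosis, and its signal lay between 4 and 25 in the 10 livers. Among the 7 genes with more than 1 tested probe set, calls disagreed for Polr1d and Polr1f, which are described below.

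The upstream sequences are shown for the 5 members with the largest changes among those with an entry in the promoter table (Polr2k had none), to set their promoters beside the size of the change. The sequences are the 250 bases before the annotated start, from RefSeq on the build GRCr8, 5′ to 3′ on the strand of the gene. Capitals mark matches on either strand to CACGTG (the E-box, bound by Myc and its relatives, which reads the same on both strands), CCGGAAG (bound by factors of the ETS family) or TATAAA (the TATA box). The palindrome bound by NRF1 was also searched and is absent from these 5. Polr3g lies at chr2:13721803-13722052 on the minus strand, Exosc9 at chr2:121343953-121344202 on the plus strand, Nop58 at chr9:68614824-68615073 on the plus strand, Utp4 at chr19:51701991-51702240 on the plus strand and Rrp15 at chr13:100830813-100831062 on the minus strand.
Polr3g: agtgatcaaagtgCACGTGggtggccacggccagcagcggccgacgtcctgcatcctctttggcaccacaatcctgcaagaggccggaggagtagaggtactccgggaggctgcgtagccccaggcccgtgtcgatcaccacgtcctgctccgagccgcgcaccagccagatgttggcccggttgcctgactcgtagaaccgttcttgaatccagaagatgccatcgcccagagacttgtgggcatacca
Exosc9: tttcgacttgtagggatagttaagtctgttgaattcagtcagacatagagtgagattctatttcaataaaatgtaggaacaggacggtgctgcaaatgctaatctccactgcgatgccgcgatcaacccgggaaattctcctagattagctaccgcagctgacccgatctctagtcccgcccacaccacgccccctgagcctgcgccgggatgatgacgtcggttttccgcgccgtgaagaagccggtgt
Nop58: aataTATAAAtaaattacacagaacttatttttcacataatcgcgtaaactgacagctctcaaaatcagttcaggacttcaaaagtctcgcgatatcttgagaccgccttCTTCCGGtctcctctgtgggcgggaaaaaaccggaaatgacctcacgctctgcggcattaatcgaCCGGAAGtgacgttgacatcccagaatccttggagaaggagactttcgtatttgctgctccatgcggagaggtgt
Utp4: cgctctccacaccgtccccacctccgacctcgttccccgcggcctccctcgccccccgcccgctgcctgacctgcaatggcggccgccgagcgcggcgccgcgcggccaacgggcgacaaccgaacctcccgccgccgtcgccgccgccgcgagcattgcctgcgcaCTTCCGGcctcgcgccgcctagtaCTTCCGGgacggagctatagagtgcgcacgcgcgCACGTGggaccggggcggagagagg
Rrp15: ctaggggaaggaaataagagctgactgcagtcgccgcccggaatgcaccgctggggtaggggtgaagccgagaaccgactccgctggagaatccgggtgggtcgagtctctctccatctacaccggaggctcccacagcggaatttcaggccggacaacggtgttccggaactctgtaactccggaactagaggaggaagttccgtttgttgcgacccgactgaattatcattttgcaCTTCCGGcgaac
Of the 73 member genes, 67 had an entry in the promoter table. A gene with several entries was represented by the first listed, here and in the sequences shown. CCGGAAG was present in 24 of the 67, or 35.8%, against 17.6% of the 6557 tested genes with an entry and 7.74% of all 27457 genes with an entry. CACGTG was present in 10, or 14.9%, against 8.8% and 5.79%. TATAAA was present in 4, or 5.97%, against 6.53% and 13.1%, and the NRF1 palindrome in 1, or 1.49%, against 1.94% and 0.849%. These shares describe letters in a window and were not tested. Within the members they were nearly the same for genes that rose and genes that did not pass: CCGGAAG was present in 11 of 30 and 9 of 30, and CACGTG in 4 of 30 and 4 of 30. Of the 5 genes shown, Exosc9 has no match to any of these patterns. Utp4 has an E-box that begins 25 bases before its start and CCGGAAG matches at 59 and 83 bases. Nop58 has CCGGAAG matches at 75 and 140 bases and a TATAAA match at 246, Rrp15 has a CCGGAAG match at 12 bases, and Polr3g has an E-box at 237 bases.

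Among RNA polymerase subunits as a whole, 14 of 27 genes rose, or 51.9% against 22.3% of all genes, and 0 fell. Their median change was 0.247. The families differed in count, and no test compared them. Of RNA polymerase I genes 3 of 7 rose (42.9%), of RNA polymerase II 9 of 13 (69.2%) and of RNA polymerase III 2 of 7 (28.6%). The RNA polymerase III share lay near that of all genes. Of the 5 subunits that all nuclear polymerases share, 4 rose, and of the 2 that polymerases I and III share both were called higher by their brightest probe set, Polr1d with a second probe set that went the other way. Of the 5 tested large subunits, which form the catalytic cores, 1 rose, or 20%, which also lay near the 22.3% of all genes.

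Polr1c, a subunit of RNA polymerases I and III, had signals of 148, 125, 161, 153 and 148 in the vehicle animals and 202, 193, 177, 195 and 226 with RG3487. The groups did not overlap, and the log2 change was 0.40 ± 0.08 SE (adjusted p = 0.00408, limma). Polr1f, a subunit of the polymerase I stalk, had signals of 123, 114, 124, 112 and 116 and 159, 165, 129, 136 and 206, again without overlap (log2 change 0.37 ± 0.10, adjusted p = 0.0205). RG3487 animals 1, 2 and 5 were the highest, and a dimmer probe set for it was at 0.34 ± 0.13, short of the threshold (adjusted p = 0.0576). Polr1d, the partner of Polr1c in both enzymes, gave opposite answers from its 2 probe sets. The brighter one read 332, 324, 362, 352 and 332 in vehicle and 398, 421, 392, 447 and 428 with RG3487 and rose (0.28 ± 0.06, adjusted p = 0.0051). The other read 389, 327, 389, 396 and 362 and 337, 277, 323, 321 and 328 and fell (-0.22 ± 0.07, adjusted p = 0.0405), the only member probe set that fell, with overlapping groups. That decrease was not called when vehicle animal 1, 3, 4 or 5 or RG3487 animal 2, 3, 4 or 5 was left out (adjusted p = 0.0503 to 0.0943), nor with arrays scaled to the hybridization controls (-0.03, adjusted p = 0.78). The gene's direction is therefore not settled by this array. Of the other polymerase I genes, the catalytic subunits Polr1a and Polr1b were at 0.23 ± 0.10 and 0.24 ± 0.12 and the polymerase-associated factor Polr1e at 0.21 ± 0.12, without passing (adjusted p = 0.0998, 0.161 and 0.184). Polr1a passed when RG3487 animal 2 was left out (adjusted p = 0.0487). Polr1h, a small zinc-binding subunit, was at 0.02.

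Polr2k, a small subunit common to all nuclear polymerases, showed the largest change of the RNA polymerase II family. Its signals were 436, 458, 526, 518 and 502 in vehicle and 660, 738, 689, 747 and 839 with RG3487, so that every treated liver lay above every control (log2 change 0.57 ± 0.08, 1.49-fold, adjusted p = 0.000407). Polr2b, the second largest subunit, read 342, 357, 294, 256 and 349 against 361, 420, 464, 408 and 445 (0.38 ± 0.10, adjusted p = 0.013). The lowest RG3487 animal, at 361, lay just above the highest vehicle animal, at 357. Polr2i, a subunit that takes part in proofreading, read 268, 286, 292, 281 and 280 and 410, 408, 330, 311 and 406 (0.38 ± 0.08, adjusted p = 0.00653), where RG3487 animals 3 and 4 stood lower than the other 3. Polr2e, another shared subunit, read 397, 386, 454, 384 and 369 and 509, 507, 473, 486 and 530 (0.32 ± 0.07, adjusted p = 0.00388). The 5 other genes that rose did so by 0.31 (Polr2d), 0.28 (Polr2f), 0.25 (Polr2c), 0.23 (Polr2j) and 0.22 (Polr2l). The Polr2f call was lost without vehicle animal 1, 2 or 5 or RG3487 animal 4 or 5 (adjusted p = 0.053 to 0.0695) and in the fit blocked by animal number (0.0572), in which Polr2c also lost its call (0.0588). That of Polr2l was lost without any 1 animal except vehicle animal 5 (adjusted p = 0.0509 to 0.107). Polr2g and Polr2h were at 0.18 and 0.16 and did not pass. Polr2a, which encodes the largest subunit and catalytic centre of RNA polymerase II, read 177, 183, 129, 143 and 146 in vehicle and 163, 162, 156, 128 and 140 with RG3487, and the 2 groups overlapped over most of their range (-0.04 ± 0.10, adjusted p = 0.774). Polr2m, a regulatory protein that binds the assembled enzyme, was at 0.02 ± 0.05 with its brighter probe set and 0.21 ± 0.09 with the other, neither of which passed.

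Polr3g changed most of all 65 genes. It encodes a subunit of RNA polymerase III that occurs in an alternative form of the enzyme and is known to be high in stem cells and growing cells. Its signals were 75, 81, 61, 75 and 62 in vehicle animals and 164, 137, 134, 183 and 192 with RG3487, 70.8 ± 8.84 (SD, n = 5) against 162 ± 26.2 (SD, n = 5). The groups were far apart, with 81 as the highest control and 134 as the lowest treated liver (log2 change 1.03 ± 0.11, adjusted p = 0.000108, limma). Polr3c, which binds next to Polr3g in the enzyme, rose from 91, 87, 92, 86 and 72 to 108, 124, 109, 116 and 128, also without overlap (0.39 ± 0.08, adjusted p = 0.00395). The other 5 tested subunits did not pass. Polr3e was at 0.33 ± 0.12 (adjusted p = 0.061) and Polr3d at 0.30 ± 0.12 (adjusted p = 0.0814), and each passed with 1 animal left out: Polr3e without RG3487 animal 2 (adjusted p = 0.0388), and Polr3d without the first vehicle or the third RG3487 animal (adjusted p = 0.0313 to 0.0375). Polr3f was at 0.21 ± 0.14 and Polr3k at 0.20 ± 0.20, the latter with vehicle animals spread from 121 to 277. Polr3a, the catalytic subunit, read 56, 78, 74, 84 and 53 and 66, 60, 68, 64 and 58 (-0.09 ± 0.11, adjusted p = 0.578). Of the large subunits Polr1a, Polr1b, Polr2a, Polr2b and Polr3a, Polr2b passed and the other 4 did not.

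**Figure D2:**
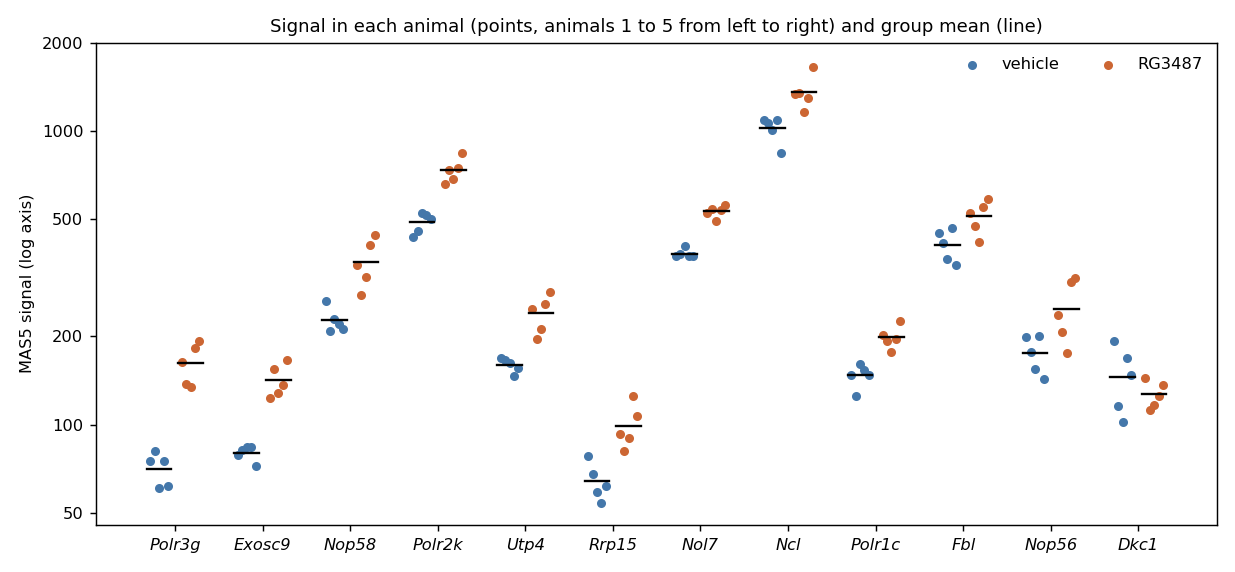
MAS5 signal (log axis) of 12 member genes in each of the 5 vehicle livers (blue) and 5 RG3487 livers (orange), with the group mean as a line. Polr3g, Exosc9, Nop58, Polr2k, Utp4, Rrp15, Nol7, Ncl and Polr1c show no overlap between the groups, whereas Fbl, Nop56 and Dkc1 do.

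The exosome is a ring of RNase PH-like proteins with a cap of RNA-binding subunits, to which nucleases such as Exosc10 attach. Of 8 tested subunit genes 5 rose and 0 fell: 4 of 5 ring subunits, 1 of 2 cap subunits and not Exosc10. The share that rose was 62.5%, against 22.3% of all genes. The number of exosome calls changed with single animals, as given below. Exosc9, a ring subunit, read 79, 82, 84, 84 and 72 in vehicle and 123, 155, 128, 136 and 166 with RG3487. It was the only exosome gene whose groups did not overlap, and its change was the second largest of the 65 genes (0.71 ± 0.09, 1.63-fold, adjusted p = 0.000234). Exosc1, a cap subunit, read 75, 95, 77, 79 and 63 and 85, 113, 90, 120 and 127 (0.39 ± 0.12, adjusted p = 0.0287), with RG3487 animals 1 and 3 in the range of the controls. Exosc4 and Exosc8 belong to the ring. Exosc4 read 125, 142, 138, 114 and 116 and 177, 177, 121, 181 and 185 (0.36 ± 0.11, adjusted p = 0.0303), and Exosc8 read 85, 82, 85, 97 and 93 and 131, 127, 81, 131 and 120 (0.35 ± 0.11, adjusted p = 0.0379). In both genes 4 RG3487 animals lay above all controls and RG3487 animal 3 lay among or below them. Exosc7 changed by 0.29 ± 0.10 (adjusted p = 0.0436). Each of these 4 calls was lost when certain animals were left out. That of Exosc1 was lost without vehicle animal 1 or 5 or RG3487 animal 2, 4 or 5 (adjusted p = 0.0537 to 0.0716). That of Exosc4 was lost without vehicle animal 1, 4 or 5 or RG3487 animal 1, 2, 4 or 5 (0.0543 to 0.0725) and in the fit blocked by animal number (0.0583). That of Exosc7 was lost without vehicle animal 2, 3, 4 or 5 or RG3487 animal 1, 4 or 5 (0.0631 to 0.101), and that of Exosc8 without vehicle animal 1, 2, 3 or 5 or RG3487 animal 1, 2, 4 or 5 (0.0535 to 0.0875). The number of exosome calls was therefore 1 without vehicle animal 5 or RG3487 animal 4 or 5, 2 without vehicle animal 1 or RG3487 animal 1 or 2, 3 without vehicle animal 2, 3 or 4, and 5 without RG3487 animal 3. It was 1 with quantile normalization, with centred arrays and with the exact rank-sum test. Exosc5, a ring subunit, was at 0.23 ± 0.12 and Exosc10 at 0.11 ± 0.09, and neither passed. Exosc3 read 211, 162, 170, 181 and 171 and 205, 184, 182, 146 and 179, with group means nearly equal and a log2 difference of -0.000418 (SE 0.09).

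The box C/D snoRNP guides methylation of ribosomal RNA. Of its proteins within the name rule, the methyltransferase fibrillarin (Fbl) and the core proteins Nop56 and Nop58 rose, 3 of 3, where 22.3% of all genes rose. Nop58 read 263, 208, 229, 220 and 212 in vehicle and 350, 277, 319, 408 and 441 with RG3487, 226 ± 22 against 359 ± 66.2 (SD, n = 5 each), without overlap (0.62 ± 0.11, 1.53-fold, adjusted p = 0.00241). Nop56 read 199, 177, 155, 200 and 143 and 236, 207, 175, 307 and 316 (0.45 ± 0.15, adjusted p = 0.0442). Here the groups overlapped, RG3487 animals 4 and 5 stood far above the rest, and RG3487 animal 3 lay at the mean of the controls. Fbl read 451, 417, 366, 467 and 351 and 526, 476, 419, 552 and 585 (0.31 ± 0.10, adjusted p = 0.0425), with overlap. The Nop56 call was lost without vehicle animal 2, 3 or 5 or RG3487 animal 1, 4 or 5 (adjusted p = 0.0677 to 0.106), which with Nop14 left 3 of 5 Nop calls without RG3487 animal 4, and that of Fbl without vehicle animal 2, 3 or 5 or RG3487 animal 1, 2, 4 or 5 (adjusted p = 0.0544 to 0.103). Of the box H/ACA snoRNP, which guides pseudouridylation, Nop10 rose and Dkc1, the pseudouridine synthase, did not. Nop10 had 1221, 1224, 1309, 1309 and 1256 in vehicle and 1436, 1536, 1444, 1470 and 1588 with RG3487, a small but even increase without overlap (0.24 ± 0.05, adjusted p = 0.00437). Dkc1 had 193, 116, 102, 169 and 147 and 144, 112, 117, 125 and 136. The vehicle animals spread over a wide range that held all RG3487 animals (-0.15 ± 0.14, adjusted p = 0.457). Nucleolin (Ncl), an abundant nucleolar protein that binds the ribosomal RNA precursor, read 1092, 1068, 1009, 1091 and 844 and 1332, 1344, 1162, 1296 and 1651, with every treated liver above every control (0.40 ± 0.10, 1.32-fold, adjusted p = 0.00893).

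Of 17 genes of the small subunit processome and small subunit maturation, 5 rose, or 29.4% against 22.3% of all genes: Utp3, Utp4, Utp6, Nol7 and Nop14. That share lies near the background. Utp4, a processome protein whose human counterpart is known as cirhin from a childhood cirrhosis, read 169, 166, 162, 146 and 156 in vehicle and 248, 196, 212, 257 and 284 with RG3487, without overlap (0.53 ± 0.09, 1.44-fold, adjusted p = 0.00187). Utp6 was called with each of its 3 probe sets, at 0.38, 0.55 and 0.26. The brightest read 275, 280, 210, 245 and 218 and 345, 308, 269, 336 and 366, with RG3487 animal 3 among the controls (adjusted p = 0.0144), and in the dimmer ones the groups did not overlap. Utp3 read 291, 308, 337, 314 and 324 and 396, 347, 362, 438 and 468 without overlap (0.33 ± 0.08, adjusted p = 0.0124). Nol7, a nucleolar protein, rose evenly across the treated animals. It read 376, 381, 406, 374 and 375 in vehicle and 527, 542, 495, 537 and 559 with RG3487, 382 ± 13.5 against 532 ± 23.7 (SD, n = 5 each; 0.46 ± 0.06, adjusted p = 0.000212). Nop14 read 43, 50, 38, 51 and 49 and 71, 72, 48, 70 and 63 (0.37 ± 0.11, adjusted p = 0.0211). RG3487 animal 3 lay among the controls, and the call was lost without RG3487 animal 2 or 4 (adjusted p = 0.0508 to 0.0523). The 12 others did not pass and lay between 0.0133 (Utp15) and 0.247 (Utp11). Nol11 lay nearest to the threshold (0.22 ± 0.08, adjusted p = 0.0539) and passed without RG3487 animal 3 (adjusted p = 0.035). Utp14a was at 0.24 and passed without vehicle animal 4 (adjusted p = 0.0409). Imp4 was at 0.24 (adjusted p = 0.0648) and passed with vehicle animal 2 left out or RG3487 animal 3 left out (0.0261 to 0.0333), and its partner Imp3 was at 0.07. A second, dimmer probe set of Utp15 was at 0.19 and passed without vehicle animal 1 (adjusted p = 0.0414). Utp23, Utp25, Nop9, Nol6, Nol10 and Rrp9 were at 0.10, 0.08, 0.04, 0.06, 0.16 and 0.02.

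Of 7 genes of large subunit maturation 4 rose, or 57.1% against 22.3% of all genes. Rrp15 read 78, 68, 59, 54 and 62 in vehicle and 93, 81, 90, 125 and 107 with RG3487, without overlap (0.52 ± 0.11, 1.43-fold, adjusted p = 0.0057). Rrp1b, a nucleolar protein that also binds chromatin, read 25, 33, 37, 26 and 40 and 53, 48, 35, 55 and 72 (0.50 ± 0.14, adjusted p = 0.0215). Its signals were the dimmest of any member called, just above the filter. RG3487 animal 3 lay among the controls, and the call was lost without vehicle animal 4 (adjusted p = 0.0511). Without RG3487 animal 1, 2, 4 or 5 the probe set fell under the filter and was not tested, which left 1 Rrp call. Nop16 read 270, 265, 262, 261 and 231 and 357, 310, 267, 369 and 392 (0.36 ± 0.10, adjusted p = 0.0149), and again RG3487 animal 3 lay among the controls. Nol9, a kinase that acts on the ends of cut ribosomal RNA, read 101, 91, 88, 86 and 97 and 130, 104, 104, 139 and 125, without overlap (0.32 ± 0.09, adjusted p = 0.0177). Rrp1 was at 0.16 ± 0.09, Nop53 at 0.15 ± 0.07 and the RNA methyltransferase Nop2 at 0.14 ± 0.12, none past the threshold.

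The same treated animals were often the lowest or the highest across the members. RG3487 animal 3 held the lowest of the 5 treated values in 27 of the 65 genes and RG3487 animal 5 the highest in 35, or 41.5% and 53.8%. Over all 7727 genes these animals were lowest in 29.5% and highest in 24.6%. Averaged over the 65 genes, the level relative to the mean of the vehicle group was 0.134 in animal 3, 0.209 in animal 2, 0.282 in animal 1, 0.322 in animal 4 and 0.392 in animal 5, on the log2 scale. The vehicle animals lay between -0.0788 and 0.0467, so all 5 treated livers were above all 5 controls in this average. The same average over all genes ran from 0.0499 to 0.0994 in treated and from -0.0418 to 0.0269 in control livers. Among treated animals the Nop genes spread from 0.0928 in animal 3 to 0.466 in animal 5 and the Rrp genes from 0.113 in animal 3 to 0.467 in animal 4. The RNA polymerase II genes spread less, from 0.201 to 0.316. Among controls, vehicle animal 5 was lowest over all members and in the RNA polymerase III genes, at -0.265, whereas in the RNA polymerase I genes vehicle animal 3 was lowest, at -0.0665. These are descriptions, with no test.

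**Figure D3:**
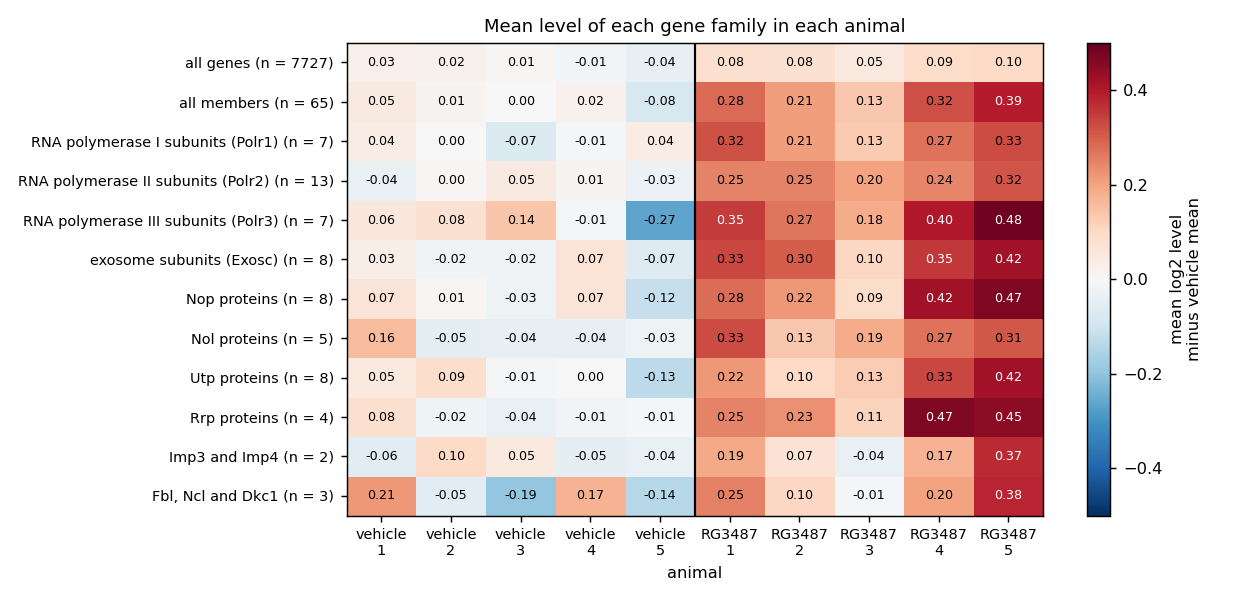
Mean log2 level of each family in each animal, relative to the mean of the 5 vehicle animals. Rows are families with their number of tested genes and columns are animals; RG3487 animal 3 is the palest treated column in most rows, at 0.134 over all members, and animal 5 reaches 0.392.

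How many members rose depended on how the arrays were put on a common scale, and so did the background. The arrays as deposited had nearly equal mean signals, between 330 and 332. The median signal was 88.6 ± 2.6 in vehicle and 94.4 ± 1.5 with RG3487, and the hybridization controls, which are spiked-in transcripts foreign to the rat, were at 9.90 ± 0.03 in vehicle and 9.71 ± 0.03 with RG3487 on the log2 scale (SD, n = 5). With quantile normalization 18 of 65 member genes rose, or 27.7%, against 13.2% of all genes. With arrays centred on their median 16 rose, or 24.6%, against 11.4%. When arrays were scaled to the hybridization controls 57 rose, or 87.7%, against 58.7%, and the median change of all genes moved from 0.0944 to 0.29. No member gene fell under any of these. Relative to the median of all genes, the members' median lay 0.153 higher as deposited, 0.158 with quantile normalization, 0.152 when centred and 0.152 with the hybridization controls, where centring and the hybridization controls shift all probe sets of an array together and so leave this distance nearly fixed by construction. Polr1c, Polr2e, Polr2i, Polr2k, Polr3c, Polr3g, Exosc9, Nop58, Nol7, Utp4, Rrp15 and Ncl, 12 of the 33 genes that rose, stayed called under every alternative in which they were tested, including each animal left out. Among these alternatives, the exact rank-sum test called higher only genes whose groups did not overlap, 20 of the members and 15.5% of all genes. It thus restates that criterion.

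**Figure D4:**
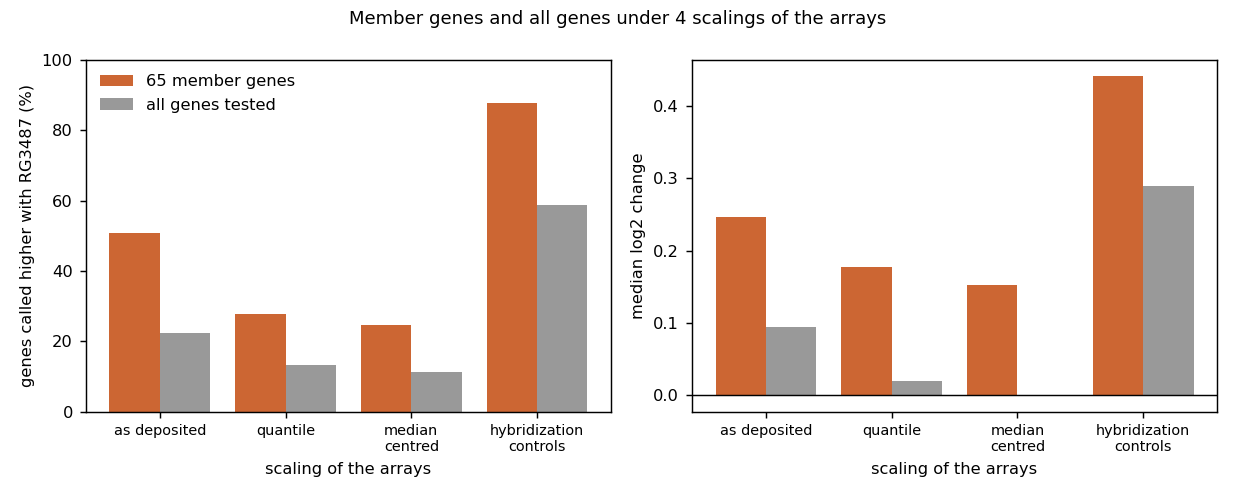
Left, share of genes called higher with RG3487 among the 65 member genes (orange) and all genes tested (grey) under 4 scalings of the arrays; right, median log2 change of the same genes. The orange bar is the taller of each pair, and all heights move with the scaling.

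Calls also went with brightness. When all tested genes were ordered by mean signal and split into 4 equal bins, 10% rose in the dimmest bin and, in the brighter bins, 20.2%, 29.7% and 29.3%. Of the member genes in these bins 3 of 13, 10 of 23, 13 of 21 and 7 of 8 rose. The median change of the members was 0.214, 0.238, 0.281 and 0.315 from the dimmest bin to the brightest, and that of all genes in the same bins was 0.0529, 0.104, 0.139 and 0.0855. The members' share and median were thus above the background in each bin.

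**Figure D5:**
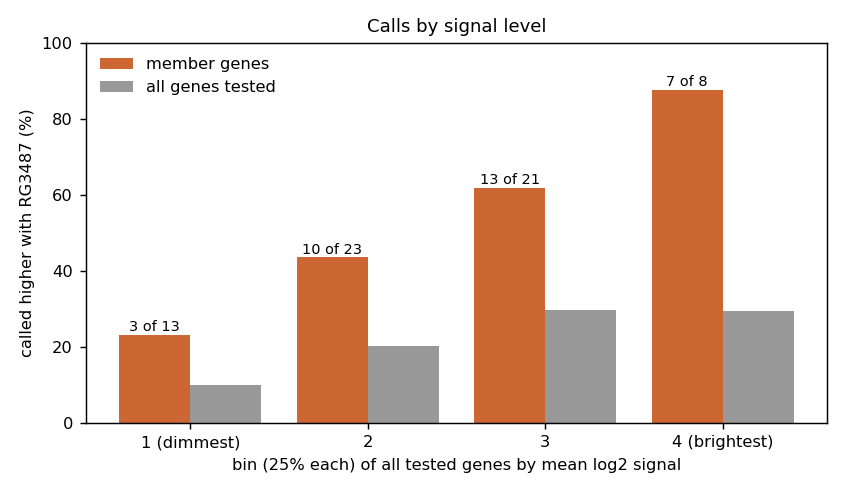
Share of genes called higher with RG3487 in each of 4 equal bins of all tested genes by mean log2 signal, for member genes (orange, with counts) and all genes (grey). The orange bar is taller in each bin, from 3 of 13 in the dimmest to 7 of 8 in the brightest.

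Partner genes outside the name rule were followed through 7 lists of transcription factors of the 3 polymerases, exosome cofactors, snoRNP assembly factors and ribosome assembly factors. Of 175 such genes tested, 66 rose, or 37.7% against 22.3% of all genes, and 0 fell, with a median change of 0.226. Among assembly factors of the large subunit 22 of 46 rose (median 0.295), among them the helicase Ddx24 (0.63 ± 0.08, adjusted p = 0.000214), the nucleolar GTPase Gnl2 (0.62 ± 0.10, 0.00134) and the helicase Ddx56 (0.57 ± 0.10, 0.00161). Among those of the small subunit 17 of 42 rose (median 0.269), with the rRNA methyltransferase Bud23 at 0.53 ± 0.10 (adjusted p = 0.00204), Krr1 at 0.50 ± 0.10 (0.00308) and the kinase Riok3 at 0.35 ± 0.07 (0.0032). In the snoRNP list 4 of 12 rose (median 0.227). Nhp2, a partner of Dkc1 and Nop10 in the H/ACA snoRNP, read 204, 220, 221, 215 and 168 in vehicle and 335, 400, 264, 341 and 416 with RG3487 (0.72 ± 0.12, adjusted p = 0.00113), the largest change in the lists. The snoRNP chaperone Nolc1 read 87, 93, 67, 78 and 72 and 136, 111, 100, 136 and 183 (0.63 ± 0.13, adjusted p = 0.00534), also without overlap.

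Among factors that work with the polymerases and the exosome, some shares lay near the 22.3% of all genes, as for the 28.6% of polymerase III factors and the 26.7% of exosome cofactors. Of 5 polymerase I factors 2 rose, Rrn3, which brings the enzyme to the ribosomal RNA genes (0.34 ± 0.09, adjusted p = 0.0158), and Taf1d, a subunit of its promoter selectivity factor (0.39 ± 0.09, 0.00729). Of 43 general factors of RNA polymerase II 14 rose (median 0.202), with Gtf2f1 of TFIIF at 0.69 ± 0.11 (0.000812), Taf10 of TFIID at 0.37 ± 0.06 (0.000818) and Gtf2h1 of TFIIH at 0.61 ± 0.12 (0.00322). Taf9, which serves in TFIID and is listed with snoRNP assembly too, was at 0.59 ± 0.14 (0.0101). Of 14 polymerase III factors 4 rose (median 0.133). Ssb, the La protein that binds the ends of new polymerase III transcripts, read 501, 461, 441, 478 and 438 and 640, 632, 624, 641 and 720 (0.48 ± 0.06, adjusted p = 0.000327). Snapc5 was at 0.45 ± 0.09 (0.00374) and the polymerase III subunit Crcp at 0.29 ± 0.08 (0.0209), a call lost with vehicle animal 4 left out and with RG3487 animal 1 or 5 left out (adjusted p = 0.051 to 0.0538). Of 15 exosome nucleases and cofactors 4 rose, and their median of 0.0944 equalled that of all genes. They included Mphosph6, which tethers a helicase to the exosome (0.47 ± 0.09, adjusted p = 0.00217), Skic8 of the cytoplasmic Ski complex (0.39 ± 0.08, 0.0041) and that helicase, Mtrex (0.28 ± 0.07, 0.0115).

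In whole liver, fewer cells of a type and less RNA per cell cannot be told apart. All 12 tested hepatocyte markers gave signals of 1320 or more in both group means, as labelled. Of these 12 markers 5 fell and 1 rose, where 7.4% of all genes fell and 22.3% rose. Their summed signal ran from 79328 to 83993 in vehicle and from 68881 to 78601 with RG3487, without overlap. Of 11 macrophage markers 3 fell and 1 rose (summed 5102 to 6045 and 4549 to 5474), of 10 endothelial markers 2 fell (3459 to 3908 and 2924 to 3474), and of 7 stellate cell markers 1 fell and 1 rose (1516 to 1955 and 1662 to 1925). The single tested cholangiocyte marker (100 to 161 and 126 to 252), the 2 of lymphocytes (117 to 153 and 96 to 142) and the 2 of red cells (2775 to 4105 and 2616 to 3483) did not pass, and the neutrophil marker S100a9 was too dim to test. None of the markers was at 0 throughout. Marker counts and sums are for the arrays as deposited and were not repeated under the other scalings. The hepatocyte decreases were -0.68 in Tat, -0.23 in Cps1, -0.19 in Apoa1, -0.15 in Apoc3 and -0.14 in Serpina1, and Hnf4a rose by 0.29. The hybridization controls lay at 9.90 in vehicle and 9.71 with RG3487 on the log2 scale. Scaling to them would raise the treated arrays relative to vehicle, so the smaller decreases depend on the scaling. The ratio of 3′ to 5′ signal, a measure of RNA quality, was 3.42 ± 0.26 in vehicle and 3.10 ± 0.30 with RG3487 for beta-actin and 1.2 ± 0.041 and 1.15 ± 0.026 for Gapdh (SD, n = 5). The part of these in the members' changes was not tested.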

How the data were processed

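Liver RNA of 10 rats (5 per group, numbered by their titles) was hybridized to 1 Affymetrix array each. The deposited values are MAS5 signal intensities made by the authors, per the submitters' processing notes. Neither the version of MAS5 nor its target intensity is given in the sources used here. From them log2(signal + 16) was computed. The 40 control probe sets and the dimmest 25% of the rest by mean were left out, which kept 11894. Groups were compared with limma 3.58.1 (lmFit, eBayes with trend, R 4.3.3) and Benjamini-Hochberg adjustment over all probe sets, two-sided, with an adjusted p under 0.05 as a call. Alternatives included other scalings, filters and tests, a minimum fold of 1.25 and each animal left out. A gene was represented by its tested probe set with the highest mean, and levels were not compared between probe sets. The test was checked on 10 simulated data sets, in which 200 of 11894 probe sets were changed, up or down at random. It recovered 31.5% of 1.25-fold, 79.9% of 1.5-fold and 95.2% of 2-fold changes, and 4.75% of its calls were false. A gene that did not pass may therefore still have changed by a small fold. The data differ from this setting, with 3295 probe sets called, most of them higher. The simulated noise was drawn independently for each probe set, with no shift shared by a whole array. The simulated share of false calls therefore does not cover the scaling of the arrays, on which the calls in the data depended. Symbols came from the platform annotation, 12562 probe sets having 1, 332 several and 2965 none; updating them through Entrez identifiers changed 0. Per-animal values are given for the 4 called genes with the largest change in each family and for Fbl, Ncl and Dkc1, and up to 3 called genes with the smallest p in each pathway list are named. Polr2a, Polr3a, Exosc3, Nop10, Nhp2, Nolc1 and Ssb are shown in addition and were chosen after their values were seen. The members and all lists, including the grouping by role, were chosen with earlier results of these data known. Promoter sequences are from RefSeq (GRCr8). Precision is limited by the number of arrays. The sources used here give no sex, scan date or batch. The limma p-values set each group difference against the spread between these animals, moderated over all probe sets.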

Additional observations from a re-analysis of the deposited data

Results flagged for a closer look

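In 12 of the 186 groups of 5 animals examined, 1 animal stood apart from the other 4 by a gap that exceeded the 95% critical value of Dixon's ratio (0.71), and chance gives about 1 in 20. Among treated animals, RG3487 animal 3 was low in Exosc4 (121, others 177 to 185), Exosc8 (81, others 120 to 131) and Taf10 (555, others 605 to 625). RG3487 animal 2 was low in the falling Polr1d probe set (277, others 321 to 337), and RG3487 animal 4 was low in Polr1h (191, others 205 to 210). RG3487 animal 5 was high in Ssb (720, others 624 to 641). Among controls, vehicle animal 5 was low in Polr3c (72, others 86 to 92), Nop16 (231, others 261 to 270) and Utp25 (62, others 76 to 81). Vehicle animal 4 was low in Polr3e (31, others 41 to 45), vehicle animal 3 was low in the dimmer Polr1f probe set (36, others 48 to 53) and high in Nol7 (406, others 374 to 381).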

How the results depend on the processing

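The main limits are the scaling of the arrays and the 5 animals per group. With quantile normalization the probe sets higher numbered 1425 over all probe sets (2443 as deposited), and 20 member probe sets were higher (35 as deposited), with 4 in Polr2, 1 in Exosc, 3 in Nop, 1 in Nol and 1 among Fbl, Ncl and Dkc1, 18 member genes and 38 other pathway genes (66 as deposited). With centred arrays 1194 were higher and 1454 lower (852 as deposited), with 17 member probe sets, 4 in Polr2, 1 in Exosc, 2 in Nop, 1 in Nol, 3 in Utp (5 as deposited), 1 in Rrp, 1 among Fbl, Ncl and Dkc1, 16 member genes and 40 other pathway genes. Scaled to the hybridization controls 6683 were higher and 354 lower, with 63 member probe sets higher and 0 lower, 8 in Polr1, 5 in Polr3, 8 in Nop, 4 in Nol, 10 in Utp, 3 in Imp, 57 member genes and 145 other pathway genes. The share of calls that were higher was 74.1% for the values as deposited, 54.4% after quantile normalization, 45.1% when centred and 95% with the hybridization controls. With the exact rank-sum test 13.9% of all probe sets and 15.5% of all genes were higher, and 533 probe sets were lower. By that test 22 member probe sets were higher and 0 lower, 1 in Exosc, 2 in Nop, 1 in Rrp, 1 among Fbl, Ncl and Dkc1, 20 member genes and 38 other pathway genes. With the minimum fold required, 1429 were higher, 0 members were lower, 4 Polr2 and 1 of Fbl, Ncl and Dkc1 were higher. At an adjusted p under 0.1 there were 5 in Polr1, 4 in Polr3 and 1 in Imp, where 27.2% of all probe sets were higher. With the dimmest 50% left out, which tests fewer probe sets, 3 were higher in Utp and 0 in Rrp. The called Rrp15 and Rrp1b probe sets and the dimmer Utp6 probe sets were themselves left out there and not tested. Over all members 61.2% of the probe sets still tested were higher, against 27.6% of all. Without trend 1 of Fbl, Ncl and Dkc1 was higher, against 20.2% of all probe sets. With no filter, where 15% of all were higher, the Polr1d decrease (0 members lower) and the calls of Polr2l, Exosc7 and Nop56 were lost.

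Leaving out 1 animal at a time gave 1803 to 2560 higher and 688 to 889 lower over all probe sets, 25 to 38 members higher and 0 to 1 lower, 23 to 35 member genes higher, 3 to 4 in Polr1, 7 to 8 in Polr2, 2 to 3 in Polr3, 1 to 5 in Exosc, 3 to 5 in Nop, 2 to 3 in Nol, 5 to 6 in Utp, 1 to 2 in Rrp, 0 to 1 in Imp, 1 to 2 among Fbl, Ncl and Dkc1, and 45 to 78 other pathway genes. With the replicate number as a block, 32 member probe sets were higher and 1 lower, against 17.6% and 6.89% of all probe sets. In that fit Polr2c, Polr2f, Exosc4 and a dimmer Utp6 probe set (adjusted p = 0.0548) were lost and the dimmer Polr1f probe set passed (0.0369). The labels number the rats within each group and name no pairs, so the main fit did not pair same-numbered animals. Their deviations correlated at between -0.0371 and 0.174, which by itself cannot show whether they were paired.

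Signs turned only in probe sets that were not called as deposited. Quantile normalization gave -0.08249 for Polr1h, -0.07821 for Polr2m, -0.04048 for Nop9, -0.001342 for Nol6, -0.08836 for Utp15, -0.04863 for Rrp9 and -0.03816 for Imp3. Centring gave -0.07217 for Polr1h, -0.07541 for Polr2m, -0.05923 for Nop9, -0.03375 for Nol6, -0.0816 for Utp15, -0.01442 for Utp25, -0.07152 for Rrp9 and -0.02714 for Imp3. The hybridization controls gave 0.1512 for Polr2a, 0.1074 for Polr3a, 0.1949 and 0.1591 for the 2 Exosc3 probe sets and 0.04531 for Dkc1. A pseudocount of 64 gave 4.896e-05 for Exosc3, and array weights gave 0.00348 for Exosc3 and -0.01602 for Utp15. With 1 animal left out, Exosc3 ran from -0.04698 to 0.06503, its other probe set from -0.1021 to 0.02081, Imp3 from -0.001129 to 0.1144, Nol6 from -0.005061 to 0.174, Nop9 from -0.02775 to 0.07278, Polr1h from -0.009773 to 0.04482, Polr2a from -0.1022 to 0.01195, Polr2m from -0.001822 to 0.03332, Rrp9 from -0.02933 to 0.07443 and Utp15 from -0.0776 to 0.07657. Over the single genes and their alternatives, 1968 values kept their direction and their side of the threshold, 143 were no longer past it, 48 newly passed and 42 turned sign. The cause of these shifts was not tested.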
